A study of Mus musculus with 22 samples.

Results

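The bacteria of the colon were compared between OVA-challenged mice given resveratrol (Ova-res) and OVA-challenged mice given vehicle (Ova-veh). All 4 Ova-res and all 4 Ova-veh samples of colon contents were used, 8 of the 22 samples of the series, together with all 32 rows of the colon table. The mice were female BALB/c, 6 to 8 weeks old when bought, and both groups carried the same allergic sensitization. They received 250 µg of ovalbumin (OVA, the allergen of egg white) with 4 mg/ml of the adjuvant aluminum hydroxide by intraperitoneal injection on day 0, and 50 µg of OVA intranasally on day 7. From day 1 to day 14 the Ova-res mice were gavaged daily with 100 mg/kg of resveratrol (RES), a plant polyphenol, in 200 µl of carboxymethyl cellulose solution. The Ova-veh mice were gavaged with 200 µl of that solution alone, and the colons were flushed on the day after the last gavage. The question was whether RES changed the gut community of mice with allergic airway disease.

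Bacterial DNA was typed by its 16S rRNA gene, and each value is the percentage of a mouse's 16S reads that fell to a taxon. A read share is not a share of cells, since species differ in their number of 16S copies, and shares of one mouse depend on each other because they add up to a whole. The values are rounded to 0.1% of reads, so that a taxon listed at 0 held less than 0.05%. Read numbers were not given. The depth behind each share is therefore unknown, and its counting error could not be computed. The 32 rows account for 96.9 to 99% of a mouse's reads (median 98.5%) and belong to 6 phyla, 10 orders and 17 named families, and 14 rows were listed at 0 in at least 1 mouse. A total of 3 names (Clostridiales, Lachnospiraceae and Ruminococcaceae, each with no lower rank) fill 2 rows each, and these are told apart as more and less abundant. The groups were kept in isolated cages, how many mice shared a cage is not stated, and mice of a cage share bacteria, so cage and treatment cannot be told apart. Each sample was taken as 1 mouse, and the legends of the study give larger groups than the 4 mice compared here.

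The mouse colon is dominated by strict anaerobes of the phyla Bacteroidetes and Firmicutes. Bacteroidetes are gram-negative bacteria that cut complex polysaccharides of the diet and of host mucus, and release acetate and propionate. Firmicutes of the order Clostridiales hold most of the known butyrate makers, and butyrate feeds the colon epithelium and favours regulatory T cells. The label of the material, colon contents, was set beside the rows listed. The 10 rows of a list of intestinal anaerobes (S24-7, Bacteroides, Rikenellaceae, Clostridiales, Lachnospiraceae and Ruminococcaceae) held between 66.2 and 77.3% of reads in every mouse, and 0 of 12 genera typical of skin, airways or laboratory reagents were listed. This is a weak check, since the lists were chosen with earlier results of these data known. Such genera could also be among the 1 to 3.1% of a mouse's reads outside the listed rows.

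The Ova-veh mice differed widely among themselves, which bears on every comparison between the groups. In Ova-veh replicates 2 and 4 the largest row was the more abundant Clostridiales row, with 27.9 and 41.4% of reads. In the other 6 mice it was S24-7, a Bacteroidetes family now called Muribaculaceae that lives on plant and host glycans, with 29.8 to 40.3%. The Bray-Curtis distance is 0 between communities with the same shares and 1 between communities with no row in common. It had a median of 0.131 among the 6 pairs of Ova-res mice (0.118 to 0.172), of 0.362 among the 6 pairs of Ova-veh mice (0.0738 to 0.533) and of 0.216 among the 16 pairs across groups (0.0815 to 0.556). On average Ova-veh replicate 1 lay 0.119 and replicate 3 lay 0.107 from the Ova-res mice, closer than the Ova-res mice lay to each other (0.129 to 0.152). Ova-veh replicate 2 lay 0.336 and replicate 4 lay 0.492 from the Ova-res mice. Distances between pairs share mice and were not tested.

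**Figure D1:**
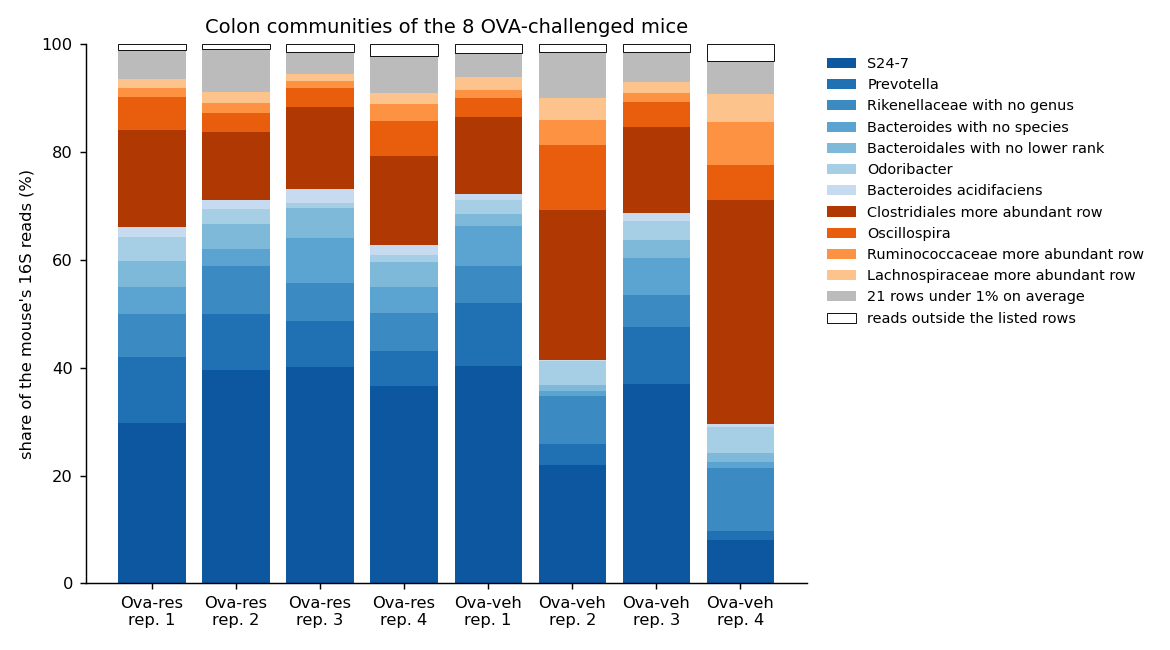
Each bar is 1 mouse and is divided by the share of its 16S reads (%) held by the 11 rows with a mean of at least 1%, the 21 rows under 1% together, and reads outside the listed rows. Blue marks Bacteroidetes and orange marks Firmicutes, and the blue part is shortest in Ova-veh replicates 2 and 4, where the more abundant Clostridiales row held 27.9 and 41.4% of reads.

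**Figure D2:**
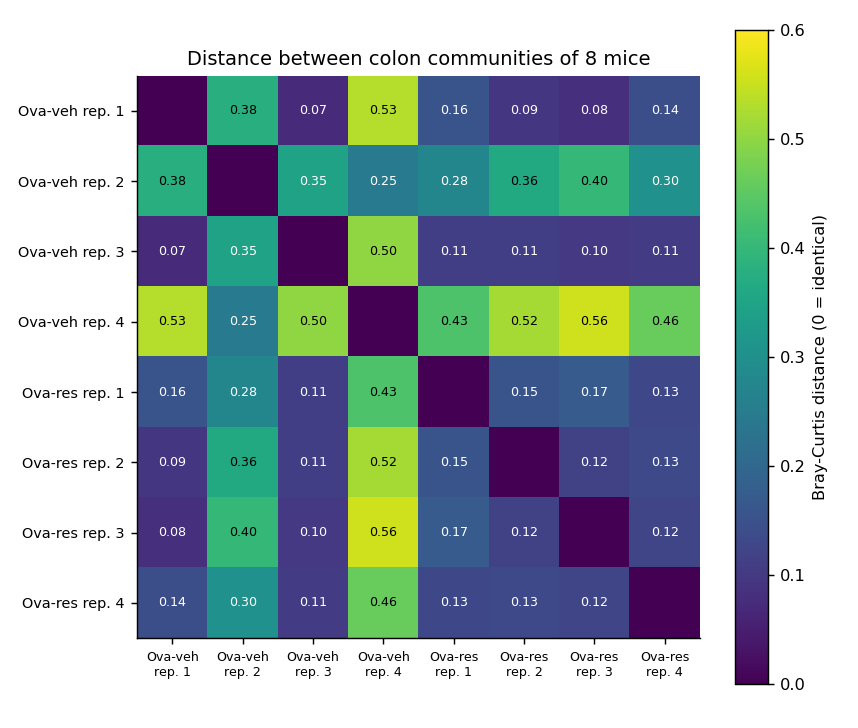
Each cell gives the Bray-Curtis distance (0 = identical) between the colon communities of 2 mice. Distances among the 4 Ova-res mice lie between 0.118 and 0.172, and the rows of Ova-veh replicates 2 and 4 hold the largest values.

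At the level of phyla, Ova-res mice had on average more Bacteroidetes and less Firmicutes, but neither difference passed the test, and the Ova-veh mice spread over a far wider range. Bacteroidetes held 66.5, 71.8, 74 and 63.2% of reads in Ova-res replicates 1 to 4, and 72.6, 42.1, 69.3 and 29.8% in Ova-veh replicates 1 to 4. Ova-veh replicates 1 and 3 lay inside the Ova-res range, and replicates 2 and 4 lay below it. The means were 68.9% ± 4.92 (SD, n = 4) and 53.5% ± 20.9 (SD, n = 4), a difference of 15.4 percentage points (two-sided exact permutation p = 0.314, and 0.446 after Benjamini-Hochberg adjustment over the 6 phyla). With 4 mice against 4 this test runs over 70 labelings and cannot give a p below 0.0286. Firmicutes held 30, 24.8, 22.9 and 30.8% in Ova-res mice and 24.2, 54.1, 27 and 66% in Ova-veh mice, a mirror image of Bacteroidetes. Their difference, Ova-res minus Ova-veh, was -15.7 percentage points (exact permutation p = 0.314). The 2 phyla together made up between 94 and 96.9% of reads in each mouse, so their differences are largely a single shift. The ratio of Firmicutes to Bacteroidetes ran from 0.309 to 0.487 in Ova-res mice, while it was 0.333 and 0.39 in Ova-veh replicates 1 and 3 and 1.29 and 2.21 in replicates 2 and 4. Without Ova-veh replicate 4 the Bacteroidetes difference was 7.54 points (exact permutation p = 0.514), and without Ova-veh replicate 1 it was 21.8 points (exact permutation p = 0.0857).

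The 4 minor phyla held small shares. Proteobacteria, which here comprised Sutterella, the family Desulfovibrionaceae and the order RF32, held 0.9, 0.9, 1.1 and 1% of reads in Ova-res mice and 0.7, 1.1, 0.6 and 0.2% in Ova-veh mice (difference 0.325 points, exact permutation p = 0.171). That difference rested on single Ova-veh mice, at 0.475 points without replicate 2 (exact permutation p = 0.0286, unadjusted) and 0.175 points without replicate 4 (exact permutation p = 0.371). Without any 1 of the other 6 mice the exact permutation p lay between 0.229 and 0.314. TM7, a candidate phylum of very small bacteria represented by the family F16, went the other way in its spread. It held 0.5, 1.3, 0 and 2.6% in Ova-res mice and 0.6, 0.6, 0.4 and 0.4% in Ova-veh mice (exact permutation p = 0.371). Deferribacteres, which consisted of the mucus dweller Mucispirillum schaedleri, held 0.2, 0, 0.2 and 0.1% in Ova-res mice and 0, 0.7, 0.2 and 0.5% in Ova-veh mice (exact permutation p = 0.343). The wall-less Tenericutes, all of the genus Anaeroplasma, held 0.35% ± 0.342 (SD, n = 4) in Ova-res and 0.325% ± 0.472 (SD, n = 4) in Ova-veh mice, with an exact permutation p of 1. The groups overlapped in all 6 phyla, and of the 10 orders none reached an unadjusted p under 0.05 (exact permutation p from 0.143 for Burkholderiales, the order of Sutterella, to 1).

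The width of the spread between mice was itself compared. Bacteroidetes had an SD 4.24 times as large in Ova-veh as in Ova-res mice, and Firmicutes 5.29 times. Over single rows the SD was larger in Ova-veh mice for 23 of 32, with a median ratio of 1.81, and for 10 of the 11 rows that averaged at least 1% of reads. The exception among those 11 was Odoribacter, with an SD of 1.67% in Ova-res and 1.07% in Ova-veh mice. The mean absolute distance of the mice from their own group's median was 4.02 points for Bacteroidetes in Ova-res and 17.5 points in Ova-veh mice (exact permutation p = 0.0286, the smallest possible, and 0.0694 after adjustment over 6 phyla and 11 rows). The deviations of a group share its median, so this p tends to be too small. In all, 7 of 17 phyla and rows (41.2%) had an unadjusted p under 0.05 in this test, and 0 of 17 after adjustment. They were Bacteroidetes, Firmicutes, the more abundant Clostridiales, Ruminococcaceae and Lachnospiraceae rows and Prevotella, all with the wider spread in Ova-veh mice, and TM7 with the wider spread in Ova-res mice. These 7 are not separate results, since several are parts of each other. As a percent of its own phylum's reads, a row had the larger SD in Ova-veh mice in 20 of 29 cases. These were 8 of 9 Bacteroidetes rows but only 8 of 15 Firmicutes rows, beside Proteobacteria rows. On that scale the more abundant Clostridiales and Lachnospiraceae rows had the larger SD in Ova-res mice. Prevotella and the more abundant Ruminococcaceae row kept the larger SD in Ova-veh mice. When any 1 Ova-veh mouse was left out, the exact permutation p for Bacteroidetes lay between 0.229 and 0.657. In a group with 1 mouse left out the middle mouse deviates by 0. That 0 alone keeps the p above 0.05 when the mouse left out is Ova-veh, so these values cannot show dependence on single mice. With 1 Ova-res mouse left out the 0 falls in that group, and the p by that test stayed at 0.0286. On the centred log-ratio scale, which here sets the log of each phylum against the mean log of the 6 phyla, the p was 0.686 by the same exact permutation test. The minor phyla, some listed at 0, weigh as much there as the large ones.

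The phylum difference was carried mainly by S24-7 and by Clostridiales with no family name. S24-7 held 29.8, 39.5, 40.1 and 36.6% of reads in Ova-res mice and 40.3, 21.9, 36.9 and 8% in Ova-veh mice. Its mean difference of 9.73 points made up 63% of the Bacteroidetes difference, and the groups overlapped (exact permutation p = 0.343). The more abundant Clostridiales row held 18, 12.7, 15.3 and 16.5% in Ova-res mice and 14.2, 27.9, 16 and 41.4% in Ova-veh mice (exact permutation p = 0.286). Both Clostridiales rows with no family name together were 9.58 points higher on average in Ova-veh mice, 61% of the Firmicutes difference. Reads with no family name made up 17.8 to 22.8% in Ova-res mice, and 16.6, 30.3, 19.5 and 43.4% in Ova-veh replicates 1 to 4. Part of what differed between Ova-veh mice thus had no name below the order, beside the named family S24-7 with its range from 8 to 40.3%.

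**Figure D3:**
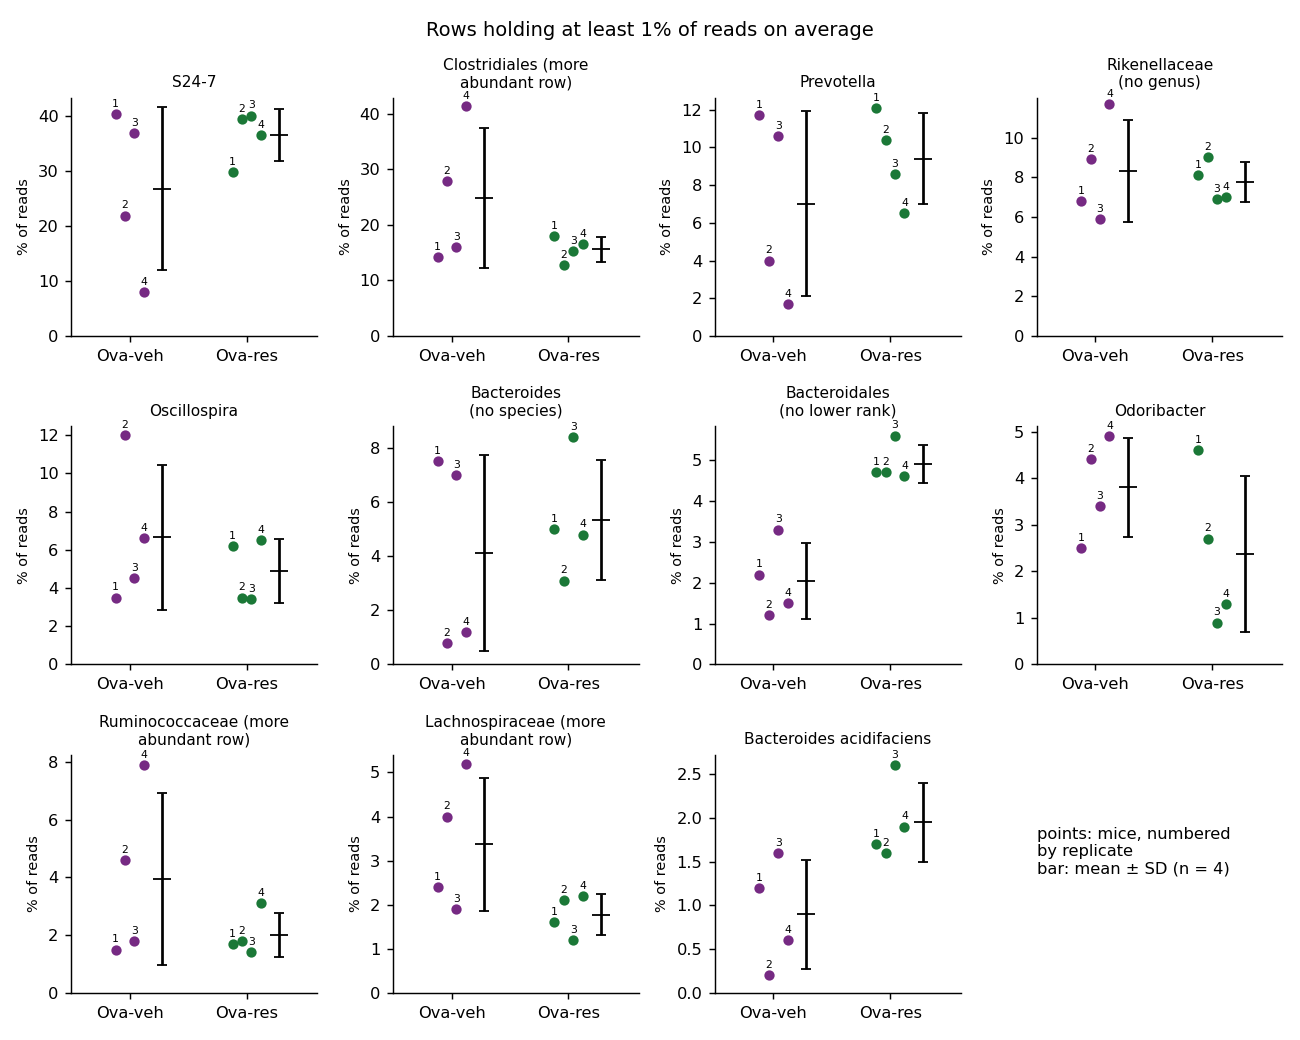
Points give the share of reads (%) of each of the 11 rows with a mean of at least 1%, numbered by replicate, and bars give the mean ± SD (n = 4). The groups overlap in every panel except Bacteroidales with no lower rank, where Ova-res mice lie between 4.6 and 5.6% and Ova-veh mice between 1.2 and 3.3%.

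Among the Bacteroidetes, the group of polysaccharide degraders, 7 of 9 rows had a higher mean in Ova-res and 2 in Ova-veh mice, and 1 separated the groups. That row was Bacteroidales with no lower rank, reads placed in the order but in no family. It held 4.7, 4.7, 5.6 and 4.6% of reads in Ova-res mice and 2.2, 1.2, 3.3 and 1.5% in Ova-veh mice. Each Ova-res mouse was above each Ova-veh mouse, and this includes Ova-veh replicates 1 and 3, whose communities were otherwise close to those of the Ova-res mice. The means were 4.9% ± 0.469 (SD, n = 4) and 2.05% ± 0.933 (SD, n = 4), a ratio of 2.39 (exact permutation p = 0.0286, the smallest possible, and 0.762 after adjustment over the 32 rows). It was the 1 row of 32 (3.12%) with an unadjusted exact p under 0.05, the 1 of 32 (3.12%) whose groups did not overlap, and as the unnamed remainder of its order the 1 of 20 families and remainders (5%) with such a p. Without any 1 of Ova-res replicates 1, 2 and 3 the exact permutation p was 0.0571. Groups that do not overlap cannot come to overlap when a mouse is left out.

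Bacteroides acidifaciens, a gut commensal that induces IgA production in mice, held 1.7, 1.6, 2.6 and 1.9% of reads in Ova-res mice and 1.2, 0.2, 1.6 and 0.6% in Ova-veh mice. The groups touched at 1.6%, where Ova-res replicate 2 and Ova-veh replicate 3 were level. The difference of means was 1.05 points (exact permutation p = 0.0571), and with single mice left out that exact permutation p lay between 0.0286, reached without Ova-veh replicate 3, and 0.0857, reached without Ova-veh replicate 2 or any 1 of Ova-res replicates 1, 3 and 4. On the centred log-ratio scale, which for single rows sets the log of each row against the mean log of the 32 rows, it was 0.0857 by the same exact permutation test. The other Bacteroides reads, with no species name, held 5, 3.1, 8.4 and 4.8% in Ova-res mice and 7.5, 0.8, 7 and 1.2% in Ova-veh mice, with a difference of 1.2 points (exact permutation p = 0.6). The genus was thus low in Ova-veh replicates 2 and 4, and its family Bacteroidaceae ranged from 4.7 to 11% in Ova-res mice against 1 to 8.7% in Ova-veh mice (exact permutation p = 0.371).

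Prevotella, which ferments plant fibre, was also lowest in Ova-veh replicates 2 and 4. It held 12.1, 10.4, 8.6 and 6.5% in Ova-res mice and 11.7, 4, 10.6 and 1.7% in Ova-veh mice (exact permutation p = 0.4). Rikenellaceae with no genus, bile-tolerant fermenters, were not lower in Ova-veh replicates 2 and 4. They held 8.1, 9, 6.9 and 7% in Ova-res mice and 6.8, 8.9, 5.9 and 11.7% in Ova-veh mice (exact permutation p = 0.8). A genus known to make short-chain fatty acids, Odoribacter, held 4.6, 2.7, 0.9 and 1.3% in Ova-res mice and 2.5, 4.4, 3.4 and 4.9% in Ova-veh mice, with a mean difference of -1.43 points (exact permutation p = 0.229). Ova-res replicate 1 lay among the Ova-veh mice, and Ova-res replicates 3 and 4 lay below all of them. Of the minor members, AF12, a genus of Rikenellaceae, held 0.4 to 0.7% in Ova-res and 0.2 to 0.7% in Ova-veh mice. Parabacteroides distasonis, a commensal that makes succinate, was listed above 0 in 3 Ova-res mice and in 1 Ova-veh mouse, at no more than 0.3% of reads.

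Shares within a phylum separate its make-up from its size. The unnamed Bacteroidales made up 7.07, 6.55, 7.57 and 7.28% of the Bacteroidetes reads of Ova-res mice and 3.03, 2.85, 4.76 and 5.03% of those of Ova-veh mice. The groups did not overlap on this scale either, and the difference of 3.2 points gave an exact permutation p of 0.0286 (0.83 after adjustment over 29 within-phylum shares). This was the 1 of 29 shares (3.45%) with such a p and the 1 of 29 (3.45%) whose groups did not overlap. The p was 0.0286 by the exact permutation test without any 1 of the 8 mice as well, and the difference then ran from 2.84 to 3.57 points. Separate groups stay separate when a mouse is removed, and this p is also the smallest possible with 1 mouse fewer. The left-out fits therefore add little to the first test. The coefficient of variation between mice was 6.06% in Ova-res and 29% in Ova-veh mice. B. acidifaciens made up 2.56, 2.23, 3.51 and 3.01% of Bacteroidetes reads in Ova-res mice and 1.65, 0.475, 2.31 and 2.01% in Ova-veh mice. Here Ova-veh replicate 3 lay above Ova-res replicate 2, so that the groups overlapped by that pair of mice (difference 1.21 points, exact permutation p = 0.0571).

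Some other Bacteroidetes rows, taken as parts of the phylum, set Ova-veh replicate 4 alone, or replicates 2 and 4, apart from the other mice. S24-7 made up 52 to 55.5% of Bacteroidetes reads in Ova-veh replicates 1 to 3 and 26.8% in replicate 4, against 44.8 to 57.9% in Ova-res mice (exact permutation p = 0.514). Rikenellaceae with no genus made up 21.1% in Ova-veh replicate 2 and 39.3% in replicate 4, against 8.51 to 12.5% in the other 6 mice. Odoribacter made up 10.5 and 16.4% in those 2 mice, against 1.22 to 6.92% in the others. Over the groups the difference was -8.29 points for Rikenellaceae (exact permutation p = 0.4) and -5.32 points for Odoribacter (exact permutation p = 0.171). In these 2 rows Ova-veh replicates 2 and 4 thus differed from the rest, but a steady share of all reads makes up more of a smaller phylum. Of all reads, Rikenellaceae with no genus held 8.9 and 11.7% in Ova-veh replicates 2 and 4, and up to 9% in Ova-res mice. Odoribacter held 4.4 and 4.9% of all reads in those 2 Ova-veh mice, and up to 4.6% in Ova-res mice.

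**Figure D4:**
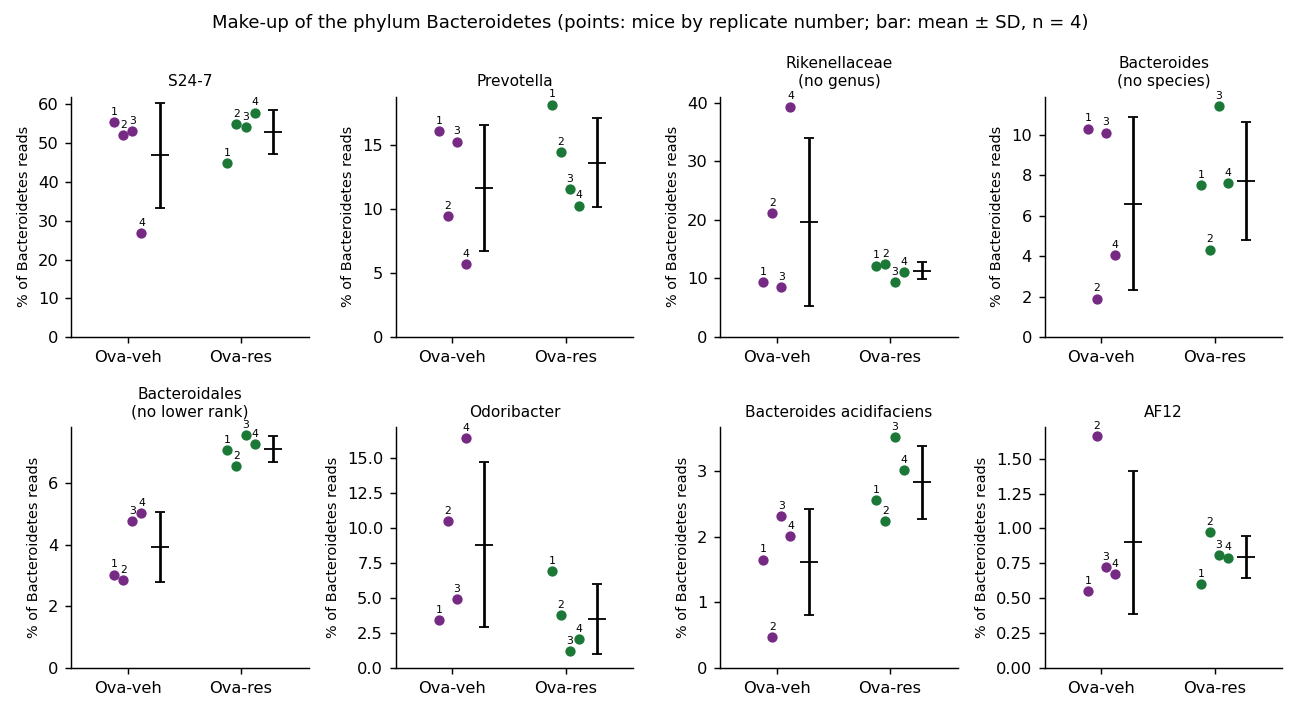
Points give the percentage of a mouse's Bacteroidetes reads held by each of 8 rows, numbered by replicate, and bars give the mean ± SD (n = 4). Unnamed Bacteroidales made up 6.55 to 7.57% in Ova-res and 2.85 to 5.03% in Ova-veh mice, while Rikenellaceae and Odoribacter were highest in Ova-veh replicates 2 and 4.

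Among the Firmicutes, 12 of 15 rows had their higher mean in Ova-veh mice and 3 in Ova-res mice. An exact permutation p under 0.05 was reached by 0 of 15, beside 1 of 32 (3.12%) over all rows. That count does not set the Firmicutes apart from the other rows. Oscillospira, a mostly uncultured genus thought to make butyrate, held 6.2, 3.5, 3.4 and 6.5% of reads in Ova-res mice and 3.5, 12, 4.5 and 6.6% in Ova-veh mice (exact permutation p = 0.429). The more abundant Ruminococcaceae row, of a family of fibre degraders and butyrate makers, held 1.7, 1.8, 1.4 and 3.1% in Ova-res mice and 1.5, 4.6, 1.8 and 7.9% in Ova-veh mice (exact permutation p = 0.286). The more abundant Lachnospiraceae row, of another butyrate-making family, held 1.6, 2.1, 1.2 and 2.2% in Ova-res mice and 2.4, 4, 1.9 and 5.2% in Ova-veh mice. All 3 rows were highest in Ova-veh replicate 2 or 4, and for Lachnospiraceae Ova-veh replicate 1 was also above every Ova-res mouse. The Lachnospiraceae difference was -1.6 points (exact permutation p = 0.114), and it had an exact permutation p of 0.0286 without Ova-veh replicate 3 and over 0.05 without any 1 of the other mice. By family, Ruminococcaceae held 5.2 to 10.4% in Ova-res and 5.4 to 19.1% in Ova-veh mice (exact permutation p = 0.314). Lachnospiraceae held 1.4 to 3.5% and 2.3 to 6.9% in the same order (exact permutation p = 0.229).

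The make-up of the Firmicutes hardly differed between the groups at its largest row. The more abundant Clostridiales row made up 60, 51.2, 66.8 and 53.6% of Firmicutes reads in Ova-res mice and 58.7, 51.6, 59.3 and 62.7% in Ova-veh mice (difference -0.161 points, exact permutation p = 0.971). In Ova-veh replicates 2 and 4, where Firmicutes were highest, this row thus held about its usual part of the phylum. Oscillospira made up 14.1 to 21.1% of Firmicutes reads in Ova-res mice and 10 to 22.2% in Ova-veh mice (exact permutation p = 0.629).

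Smaller Firmicutes rows each held less than 1% on average. Ruminococcus with no species held 0.4 to 0.8% in Ova-res mice and 0.4, 2.3, 0.6 and 2.1% in Ova-veh mice, and the mucin degrader [Ruminococcus] gnavus 0.1 to 0.3% and 0.1, 0.7, 0.1 and 0.8%, both with their high values in Ova-veh replicates 2 and 4. Lactobacillus, a lactic acid bacterium, was not ordered by group. It held 0.1, 0.8, 0.7 and 0.1% in Ova-res mice and 1.2, 0.1, 1 and 0.1% in Ova-veh mice (exact permutation p = 0.657). Erysipelotrichaceae with no genus held 0.6, 0.6, 0.1 and 0.5% in Ova-res mice and 0.3, 0, 0.4 and 0% in Ova-veh mice (exact permutation p = 0.171), with both listed zeros in Ova-veh replicates 2 and 4. Coprococcus, a butyrate maker, held 0.2, 0.1, 0 and 0.1% in Ova-res mice and 0.1, 0.3, 0.2 and 0.3% in Ova-veh mice (exact permutation p = 0.2). The cellulose degrader Ruminococcus flavefaciens stood at 1% in Ova-res replicate 2, at 0.1% in Ova-veh replicate 2 and was listed at 0 in the other 6 mice. Dehalobacterium held 0.1 to 0.3% in Ova-res and 0.1 to 0.6% in Ova-veh mice.

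Within the Proteobacteria, Sutterella, an anaerobe that does not ferment sugars, held 0.4, 0.5, 0.7 and 0.3% of reads in Ova-res mice and 0.5, 0, 0.2 and 0% in Ova-veh mice. The groups overlapped through Ova-veh replicate 1, and both listed zeros were again in Ova-veh replicates 2 and 4 (exact permutation p = 0.143). The sulfate-reducing family Desulfovibrionaceae, which makes hydrogen sulfide, held 0.5, 0.2, 0.4 and 0.6% in Ova-res mice and 0.2, 1.1, 0.3 and 0.1% in Ova-veh mice. The mean was 0.425% in both groups, and in Ova-veh mice it rested on replicate 2, the highest of all 8, while the other Ova-veh mice lay at or below 0.3%. Desulfovibrio with no species held 0.1, 0, 0.1 and 0.1% in Ova-res mice and 0, 0.6, 0.1 and 0.1% in Ova-veh mice (exact permutation p = 0.857), so that a single Ova-veh mouse set its higher mean there. The order RF32 held at most 0.2% of reads in Ova-res and 0.1% in Ova-veh mice. As a share of Proteobacteria reads, Sutterella made up 30 to 63.6% in Ova-res mice and 71.4, 0, 33.3 and 0% in Ova-veh mice. RF32 made up 0 to 22.2% in Ova-res mice and 0, 0, 16.7 and 50% in Ova-veh mice. These shares rest on values of a few rounding steps.

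All 32 rows were also fitted together with limma on log2(percent + 0.05), which pools the error over rows. Of 32 rows, 0 (0%) passed an adjusted p of 0.05. At an unadjusted p under 0.05 there were 2 of 32 (6.25%) higher and 0 of 32 (0%) lower in Ova-res mice, while the exact test had 1 of 32 (3.12%) higher and 0 (0%) lower. The fitted changes were positive for 16 rows and negative for 16, with a median of -0.01, and all folds here are on the scale of percent + 0.05, which understates the change of rare taxa. Among rows averaging 0.1% of reads or more, the 5 largest positive changes were those of Sutterella, Erysipelotrichaceae, B. acidifaciens, unnamed Bacteroidales and Bacteroides with no species. Sutterella had a log2 change of 1.89 (standard error 0.775, limma adjusted p = 0.482), a 3.71-fold difference with a 95% interval from 1.17 to 11.7. Erysipelotrichaceae stood at 1.62 (limma adjusted p = 0.568), a 3.07-fold difference with a 95% interval from 0.897 to 10.5. Both rows were listed at 0 in Ova-veh replicates 2 and 4, so their changes depend on the value added before the log. With 0.01% added in place of 0.05% the log2 change was 3.02 for Sutterella and 2.67 for Erysipelotrichaceae, and with 0.1% added it was 1.43 and 1.22. Leaving out single mice moved Sutterella between 1.41 and 2.56 and Erysipelotrichaceae between 1.12 and 2.18. Unnamed Bacteroidales had a log2 change of 1.34 (standard error 0.555, limma adjusted p = 0.482), a 2.52-fold difference with a 95% interval from 1.11 to 5.75. B. acidifaciens was at 1.37 (standard error 0.654, limma adjusted p = 0.568) and 2.58-fold, with an interval from 0.979 to 6.81. Without Ova-veh replicate 2 the change of B. acidifaciens was 0.83. Bacteroides with no species was at 0.88 (limma adjusted p = 0.597), and at 0.32 without Ova-veh replicate 2 and 1.37 without Ova-veh replicate 1.

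The 5 rows with the largest negative log2 changes were Coprococcus at -1.01, the less abundant Clostridiales row at -0.98, Odoribacter at -0.89, M. schaedleri at -0.87 and, among Lachnospiraceae, the more abundant row at -0.84 (limma adjusted p = 0.597 each). Their 95% intervals all included 0, and single mice moved most of them widely. Coprococcus ran from -1.32 without Ova-res replicate 1 to -0.55 without Ova-res replicate 3, and stood at -1.61 with 0.01% added before the log. The Clostridiales row stood at -1.43 when Ova-veh replicate 3 was left out, and at -0.41 when replicate 2 was. Odoribacter ran from -1.29 without Ova-res replicate 1 to -0.53 without Ova-res replicate 3. M. schaedleri was at -1.67 when Ova-veh replicate 1 was left out and at -0.35 when Ova-res replicate 2 was, and the Lachnospiraceae row ranged from -1.07 to -0.60. All 5 kept their negative sign in each of these fits. For S24-7, the most abundant taxon, the interval of the fold ran from 0.636 to 4.04, and for the more abundant Clostridiales row from 0.295 to 1.59.

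**Figure D5:**
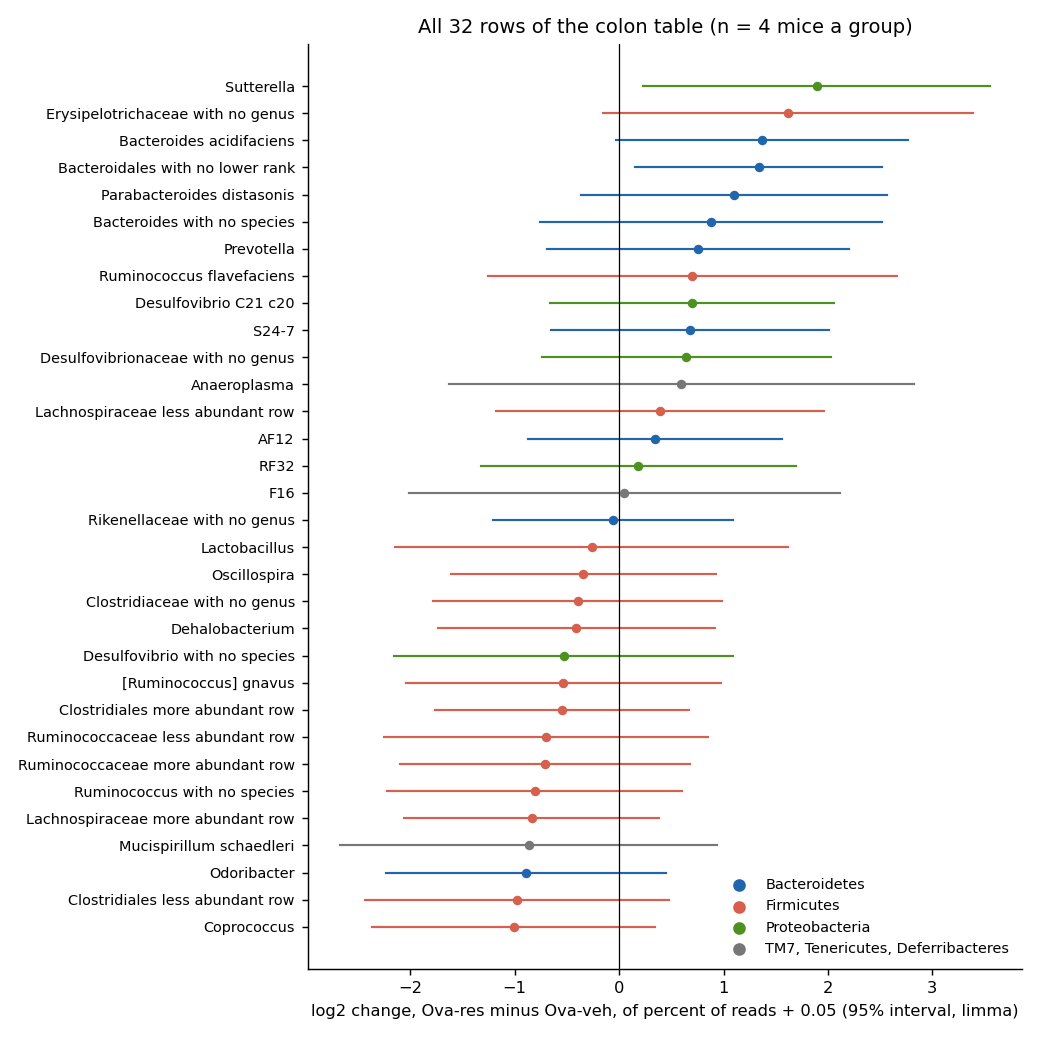
Points give the limma log2 change (Ova-res minus Ova-veh, of percent of reads + 0.05) of all 32 rows with its 95% interval, coloured by phylum (n = 4 mice a group). The interval lies wholly above 0 for Sutterella and unnamed Bacteroidales, before adjustment, and includes 0 for the other rows.

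Taxa were also summed by what their relatives are known to do. Glycan-degrading Bacteroidetes (7 rows) held 63.4% ± 4.49 (SD, n = 4) of reads in Ova-res and 50.9% ± 20.1 (SD, n = 4) in Ova-veh mice. The Ova-res mice lay between 58.1 and 67.8%, and the Ova-veh mice held 70, 40.2, 65.5 and 28.1%, so that only replicates 2 and 4 were below the Ova-res range and replicate 1 was above it. Of these 7 rows 5 had a positive and 2 a negative log2 change (Odoribacter and Rikenellaceae), with a median of 0.76 beside -0.01 over all 32 rows. Butyrate-associated Firmicutes (8 rows) held 10.7, 10.1, 6.5 and 12.9% in Ova-res mice and 8, 23.6, 9.1 and 23% in Ova-veh mice, with 2 rows positive, 6 negative and a median log2 change of -0.71. Their 2 highest sums were those of Ova-veh replicates 2 and 4, and the other Ova-veh mice lay inside the Ova-res range. The 3 mucus-associated rows (both Bacteroides rows and M. schaedleri) held 7.4% ± 2.73 in Ova-res and 5.37% ± 3.91 in Ova-veh mice (SD, n = 4 each), with a median log2 change of 0.88, the 2 Bacteroides rows being positive and M. schaedleri negative. Akkermansia was also sought for this list but was not among the rows. The mucin degrader [Ruminococcus] gnavus was left out of the list, and its log2 change was negative, at -0.53 (limma adjusted p = 0.683). Rows of phyla that bear lipopolysaccharide (15 rows, mostly Bacteroidetes) held 70% ± 4.95 and 54.4% ± 20.7 of reads (SD, n = 4 each), with 11 positive and 4 negative changes. In both of these lists Ova-veh replicates 2 and 4 lay below every Ova-res mouse and replicates 1 and 3 lay inside the Ova-res range. Of 5 lactic acid and bifidobacterial genera sought, only Lactobacillus was listed. In none of these lists did a row pass limma's adjusted test.

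Diversity within a mouse did not pass the test. The Shannon index (natural log), which is higher the more evenly reads spread over the rows, was 2.16 ± 0.092 (SD, n = 4) in Ova-res and 2.12 ± 0.0909 (SD, n = 4) in Ova-veh mice, and their difference had an exact permutation p of 0.571. Between 26 and 29 rows were above 0 in Ova-res mice and between 25 and 30 in Ova-veh mice. Ova-veh replicate 4, the mouse farthest from the Ova-res mice, had the fewest rows, and its index of 2.06 lay within the Ova-res range of 2.03 to 2.25.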

How the data were processed

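Colon contents were flushed, and the V3-V4 regions of the bacterial 16S rRNA gene were amplified and sequenced. The authors deposited the fraction of each mouse's reads per taxon, rounded to 3 decimals. The study names the Nephele platform for sorting lung reads into operational taxonomic units. For the classification of the colon reads, its version and its reference taxonomy nothing was given in the sources used here, and without read numbers the depth of a sample is unknown. Columns of 5 naive mice were not used, and no mouse's column was identical to another's.

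Fractions were multiplied by 100, and sums over each phylum, order and family were taken in Python 3.11.15 (numpy 2.4.6, scipy 1.17.1, pandas 2.3.3). Group means, within-phylum shares, spread and Shannon index were compared with two-sided exact permutation tests. All rows with a mean of at least 0.01% were fitted on log2(percent + 0.05) with limma 3.58.1 (R 4.3.3) and no trend or robust step. The added 0.05% is the largest share that a listed 0 can hide. Adjustment was by Benjamini-Hochberg at 0.05. Scripts were tested on simulated data. P-values measure only the spread between these samples.

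The taxa named are the phyla, rows of at least 1%, the 5 largest limma changes in each direction among rows of at least 0.1%, those with an exact p under 0.05, orders, families and members of the lists. Members and lists were chosen with earlier results of these data known. Alternatives were other pseudocounts (0.01 and 0.1%), minimum means and scalings, summed double names, a replicate block and each mouse left out. Plots were drawn with matplotlib 3.10.9.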

Additional observations from a re-analysis of the deposited data

Results flagged for a closer look

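In 4 of 96 groups of 4 mice, 1 mouse lay apart from the other 3 by more than Dixon's 95% critical value for its gap over the group's range. Chance alone gives about 1 such group in 20. Unnamed Bacteroidales held 5.6% of reads in Ova-res replicate 3 and 4.6 to 4.7% in the other Ova-res mice, with a gap of 0.9 of the range. S24-7 made up 26.8% of Bacteroidetes reads in Ova-veh replicate 4 and 52 to 55.5% in the other Ova-veh mice, with a gap of 0.878 of the range. Porphyromonadaceae were listed at 0.1% in Ova-veh replicate 3 and at 0 in the other Ova-veh mice. Clostridiaceae were listed at 0 in Ova-veh replicate 2 and at 0.1% in the other Ova-veh mice, so both of these last gaps are 1 rounding step.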

How the results depend on the processing

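Of 314 alternative values for 25 results, 285 kept their direction and side of the threshold (or, for counts, stayed within 1.5 times), 10 lost and 2 gained an unadjusted p under 0.05, 4 changed sign, and 13 counts moved. Many of the 285 are log2 changes of single rows, judged by limma's adjusted p. That p was 0.482 or more in the main fit, so that these kept their side of the threshold says little. Limma called 0 rows under every alternative. With single mice left out, the rows called by the exact test ran from 0 to 3, the families from 0 to 1, the within-phylum shares from 1 to 2, and the difference in Bacteroidetes spread from 6.14 to 15 points. The 3 rows, without Ova-veh replicate 3, were unnamed Bacteroidales, B. acidifaciens and the more abundant Lachnospiraceae row. On the centred log-ratio scale, taken over the 6 phyla, the difference in Bacteroidetes spread was 0.077 (exact permutation p = 0.686). On that scale the difference of TM7 means was -0.0157, where that of the shares was positive. The Tenericutes difference ran from -0.125 to 0.25 points over the mice left out, with -0.0833 without Ova-veh replicate 2 or 4. With the replicate number as a replicate block, 0 rows, 0 families and 0 within-phylum shares were called, but 4 pairs cannot give a p below 0.125, and the deviations of same-numbered mice correlated negatively for replicates 1 and 2 (-0.152 and -0.192) and positively for 3 and 4 (0.393 and 0.407), so the numbers were not taken to pair the mice. The cause of these moves was not tested, except that the block's own smallest p empties its counts. Also by construction, the spread p of Bacteroidetes lay above 0.05 without any 1 Ova-veh mouse. Depth is unknown, and taxa of a few rounding steps have no firm order.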
